A study of Mus musculus with 4 samples.

Results

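Endothelial barcodes without mural transcripts were selected from dissociated mouse retina, and 57 of 35191 deposited barcodes met the selection. A barcode, the tag of 1 droplet, was kept with 300 or more genes and with no more than 20% of its UMIs from mitochondrial genes (UMIs are unique molecular identifiers, each standing for 1 captured transcript). It was a member when at least 3 of Cldn5, Pecam1, Cdh5, Flt1, Kdr, Ly6c1 and Egfl7 were detected with at least 6 UMIs together, and when Acta2, Tagln, Myh11, Pdgfrb and Rgs5 together had at most 2 UMIs. The values of these 12 genes chose the members, so they are given here as a description and carry no test.

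The endothelium of the inner retina lines closed capillaries and forms the inner blood-retina barrier. Claudin-5, occludin and their partners seal the cell borders, transporters such as Glut1 carry nutrients across, efflux pumps such as P-glycoprotein return lipophilic compounds to the blood, and norrin acting through Fzd4 and beta-catenin maintains this state. Mural cells, the pericytes and smooth muscle cells on the outer wall, adhere to the endothelium and often share a droplet with it.

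Each library was made from 1 retina of 1 mouse aged 30 days: 1 female and 1 male wild-type (WT) mouse and 1 female and 1 male NLGF mouse. The labels give the NLGF genotype by that name only. As background, NLGF mice carry a knock-in at the endogenous App locus with a humanised and mutated amyloid beta sequence, so no cell-type-specific promoter restricts it. Values per library are listed below in the order WT female, WT male, NLGF female, NLGF male.

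Total UMIs per library ranged from 19128388 to 23473093, and 7612 to 8636 barcodes per library were kept. Members numbered 15, 12, 16 and 14, with 86845, 115912, 153040 and 110143 UMIs. Of all barcodes, 264 occurred in more than 1 library, and 0 of these were members. The automatic Scrublet threshold, a doublet caller, marked 0, 0, 2 and 0 barcodes, which is too few for a working call, and 1 member scored in the top 6% of its library. At the edges of the selection, 4 members had 6 to 9 UMIs of the 7 endothelial genes, and 0 barcodes missed it at 3 genes and 4 or 5 UMIs. Another 609 barcodes missed it by 1 gene, with 2 of the 7 genes and at least 6 UMIs. Of the members, 12 had 1 or 2 mural UMIs (1, 2, 8 and 1 per library). The mural limit left out 35 barcodes that met the endothelial criteria (13, 8, 4 and 10), of which 6 had 3 to 6 mural UMIs.

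The endothelial label did not hold for 25 of the 57 members. These 25 (43.9%; 7, 5, 7 and 6 per library) carried the markers of Müller glia, the radial glia of the retina, with 98 to 272 UMIs of Rlbp1, Glul, Slc1a3, Dkk3, Aqp4, Kcnj10 and Sox9 and all 7 genes in 24 barcodes. In these 25, Cldn5 had 0 UMIs, 24 had exactly 3 of the 7 endothelial genes, and between 1 and 3 endothelial UMIs came from genes other than Flt1 and Kdr. Flt1 and Kdr, the VEGF receptors 1 and 2, were detected in 80.2% and 88.5% of 990 Müller glia barcodes outside the selection, with a median of 7734.5 UMIs per barcode. Cldn5 was detected in 0.101% of those 990 and in 0.195% of 32247 other kept barcodes (median 986 UMIs), against 93.8% of the 32 members without Müller markers (median 4430.5 UMIs). Cldn5 helped choose the members, and barcodes meeting the endothelial criteria were left out of both reference sets. The selection thus favours this contrast, which is a description. Tek, Ptprb and Slco1a4, endothelial genes that the selection did not use, were detected in 26, 30 and 29 of these 32 and in 0 of the 25. The split by Müller markers (at least 4 of the 7 genes and at least 10 UMIs) was made after the data were seen. Below, "Cldn5-bearing" stands for the 32 members without Müller markers (2 of which had 0 Cldn5 UMIs), "Müller-marker" for the 25, and the counts of calls between genotypes are given for both. Of the 32, 1 NLGF female barcode described below also goes against the label, with bipolar neuron genes beside 10 endothelial UMIs.

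**Figure D1:**
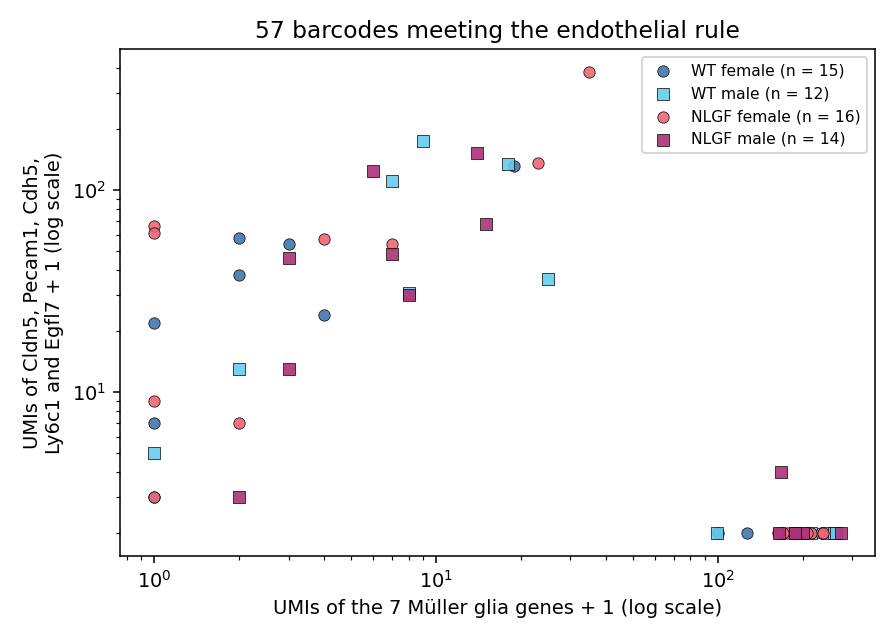
UMIs of the 7 Müller glia genes (x axis, log scale of UMIs + 1) against UMIs of Cldn5, Pecam1, Cdh5, Ly6c1 and Egfl7 (y axis, log scale of UMIs + 1) in the 57 members, 1 point per barcode, coloured by library. The 25 Müller-marker members lie at 98 to 272 Müller UMIs with 1 to 3 UMIs on the y axis, and the 32 others at 0 to 34 Müller UMIs with 2 to 380 on the y axis.

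The 25 Müller-marker members had 5848 to 13511 UMIs each and held 65.7%, 47.8%, 45.1% and 56.3% of the members' UMIs. They were 2.45% of the 1021 kept barcodes with Müller markers. Of the 609 barcodes that missed the selection by 1 gene, 595 carried Müller markers. The 32 Cldn5-bearing members (8, 7, 9 and 8) had 697 to 40725 UMIs each and 29812, 60509, 84020 and 48092 UMIs per library. A single NLGF female barcode with 40725 UMIs held 48.5% of that library's Cldn5-bearing UMIs. A WT male barcode with 21916 UMIs had 3839 UMIs of Hbb-bs, a beta-globin gene, and haemoglobin genes made up 0%, 12.5%, 1.46% and 0% of Cldn5-bearing UMIs. Levels are given as CPM, the UMIs of a gene relative to the summed UMIs of its library, after TMM scaling, which limits the weight of a few very abundant genes.

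Most of the 32 Cldn5-bearing members carried endothelial genes of barrier capillaries, and the exceptions are given below. All 7 endothelial genes of the selection were detected in 20 of them, 24 had at least 4 of the 5 genes other than Flt1 and Kdr, and their median was 68.5 endothelial UMIs (range 7 to 564). Cldn5, the main claudin of the barrier, stood at 5140, 4420, 4560 and 3950 CPM. Pecam1, an adhesion molecule of the cell borders, stood at 775, 821, 843 and 631 CPM. Cdh5, the VE-cadherin of adherens junctions, stood at 937, 1060, 796 and 750 CPM. The libraries of the 2 genotypes overlapped for Cldn5 and Pecam1, and for Cdh5 both WT values lay above both NLGF values. Flt1 had 4910, 5000, 3500 and 4580 CPM and Kdr 355, 727, 623 and 809 CPM, the WT female being lowest for Kdr.

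Endothelial genes outside the selection were enriched as well. The mean level of Slco1a4, an organic anion transporter of the barrier, was 118 times that over all kept barcodes, that of Mfsd2a, a lipid transporter that limits transcytosis, 116 times, that of Tek, the angiopoietin receptor Tie2, 109 times, and that of Abcb1a, the P-glycoprotein pump, 107 times. Cxcl12, a chemokine of capillaries, was at 117 times and Pglyrp1 at 133 times. These ratios describe barcodes chosen by related genes and are not tests. Plvap, the diaphragm protein of fenestrated vessels, Esm1 and Angpt2, genes of growing vessel tips, and Selp, Sele, Ackr1 and Gja5, genes of veins, activated endothelium and arteries, had 0 UMIs in all 57 members. Other genes of the same lists were detected in the 32. These were 9 of 15 tip cell and fenestrated genes, 9 of 13 vein genes and 12 of 14 artery genes. The tip cell and fenestrated list summed to 4940, 5150, 4180 and 4460 CPM. For the 32 barcodes a count of 0 allows a share of barcodes with a UMI of up to 9.38%, counting error only, and does not limit the share of cells that express the gene.

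Arterial and venous genes were spread unevenly over the barcodes. Mfsd2a or the lactate transporter gene Slc16a1, both genes of capillaries, was detected in 31 of the 32. Mgp or Bmx, which mark arteries, were detected in 14. A WT female barcode of 968 UMIs had 7 UMIs of Mgp, 4 of Gkn3 and 2 of Fbln5, and an NLGF male barcode of 1423 UMIs had 26 of Mgp and 4 of Gkn3. Gkn3 was in 2 barcodes in all, those 2. The NLGF female barcode with 40725 UMIs carried 26 of that library's 31 UMIs of Vwf, the von Willebrand factor gene. An NLGF female barcode of 10507 UMIs had 26 UMIs of Trpm1 and 33 of Prkca, both genes of ON bipolar neurons, beside 3 of Cldn5.

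Markers of other cells were low in the Cldn5-bearing members apart from those barcodes. The 6 rod genes together stood at 2040, 1470, 1220 and 1600 CPM, against 23500 to 24500 over all kept barcodes. The 8 Müller glia genes stood at 1130, 1400, 935 and 1260 CPM, with Dkk3, Aqp4 and Sox9 at 0, against 31500 to 35600 CPM in the Müller-marker members. The 12 mural genes, 5 of them limited by the selection, had 2, 1, 7 and 2 UMIs. All 5 astrocyte genes, all 4 fibroblast genes and all 5 pigment cell genes had 0 UMIs, and the 7 microglial genes had 0, 3, 1 and 0. The 4 bipolar genes had 0, 0, 69 and 2 UMIs, and 97.2% of them lay in 1 barcode.

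The first comparison asks whether endothelial barcodes were as frequent in NLGF as in WT retinas. Members made up 0.174%, 0.139%, 0.21% and 0.165% of kept barcodes, with exact binomial 95% intervals of 0.0976 to 0.287%, 0.0718 to 0.243%, 0.12 to 0.341% and 0.0904 to 0.277%. The WT mean was 0.157% ± 0.0249 and the NLGF mean 0.188% ± 0.0318 (SD, n = 2 each, exact two-sided permutation p = 0.667, where the smallest p this design allows is 0.333). The NLGF male lay between the WT libraries, so the genotypes overlapped. Cldn5-bearing members alone made up 0.0929%, 0.0811%, 0.118% and 0.0944% (exact permutation p = 0.333), with both NLGF values above both WT values. With no mural limit the shares were 0.325%, 0.232%, 0.263% and 0.283%, and the mean difference turned to -0.0054 percentage points (exact permutation p = 1). With 0 mural UMIs required it was -0.00994. A difference in the share of endothelial barcodes was not detectable at this number of mice. With 2 mice per genotype, every p-value given here rests on the spread between these 4 libraries.

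The second comparison asks which transcripts differed between NLGF and WT in the summed members. Of 2392 genes tested over the 57 members, 0 (0.0%) passed an adjusted p of 0.05 in edgeR's quasi-likelihood test with Benjamini-Hochberg adjustment over all genes tested. At an unadjusted p under 0.05, 51 genes (2.13%) were higher and 39 (1.63%) lower in NLGF. DESeq2 also called 0, with 10 genes at an unadjusted p under 0.05. On leaving out 1 library the count was 14 (WT female out), 8 (WT male out), 5 (NLGF female out) or 7 (NLGF male out). The median log2 fold change was -0.02 and the median standard error (SE) 0.44.

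Across the 32 Cldn5-bearing members, 975 genes had enough UMIs to be tested and 0 (0.0%) passed. At an unadjusted p under 0.05, 17 (1.74%) were higher and 14 (1.44%) lower. DESeq2 called 0, with 7 genes at an unadjusted p under 0.05. The count was 12 with the WT female left out, 9 with the WT male, 5 with the NLGF female and 10 with the NLGF male left out. Without the barcode that carries bipolar neuron genes 0 of 990 genes passed, with 34 at an unadjusted p under 0.05. The median SE was 0.47, so single genes were resolved coarsely. In the 25 Müller-marker members 1 of 1041 genes (0.0961%) passed, Nupr1, which is described further on with the stress genes. There 32 genes (3.07%) were higher and 20 (1.92%) lower at an unadjusted p under 0.05.

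**Figure D2:**
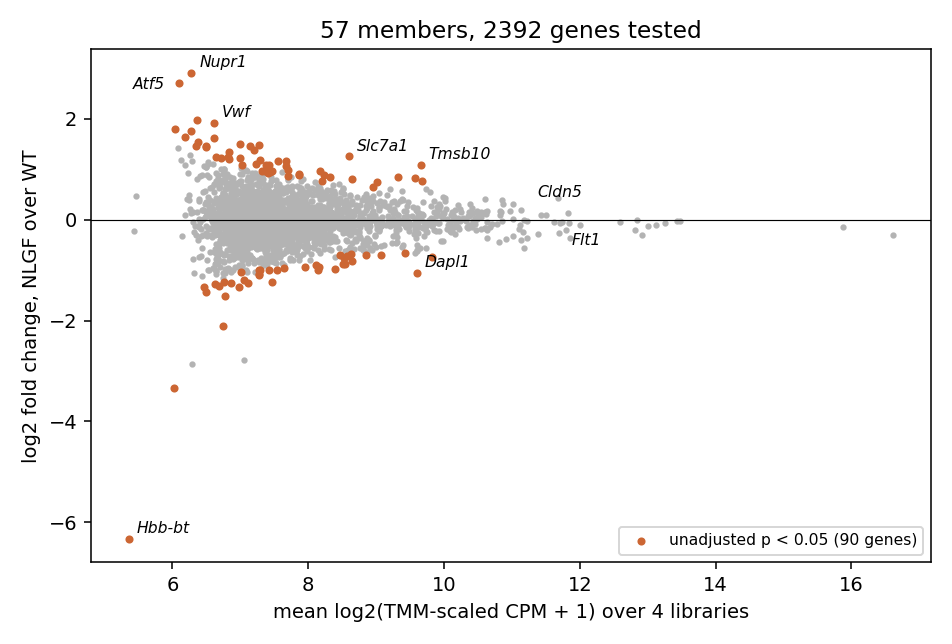
Log2 fold change of NLGF over WT (y axis) against mean log2(TMM-scaled CPM + 1) over the 4 libraries (x axis) for the 2392 genes tested in the 57 members, 1 point per gene. The 90 genes with an unadjusted p under 0.05 are coloured, 0 genes passed the adjusted threshold, and the names mark genes described in the text.

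Because no gene passed the threshold, genes were named by their smallest unadjusted p over all members. Tmsb10 and Slc7a1 were among these and lay mainly in Cldn5-bearing members. Their small p follows from that choice. Tmsb10 (chromosome 6, 72957347 to 72958748 on GRCm38), the gene of the actin-binding peptide thymosin beta 10, had 18, 51, 154 and 83 UMIs in these members, or 581, 951, 1780 and 1640 CPM. Both NLGF libraries lay above both WT libraries. Among all 975 genes, 159 (16.3%) were higher and 132 (13.5%) lower in NLGF with no overlap of CPM, so a lack of overlap alone was common. The log2 fold change of Tmsb10 was 1.11 ± 0.25 (SE; edgeR unadjusted p = 0.00144, adjusted p = 0.995). It was 1.15 without the 2 barcodes with haemoglobin UMIs. Tmsb10 passed the threshold without the WT male (log2 fold change 1.55, edgeR adjusted p = 0.0154) and without the NLGF male (1.19, edgeR adjusted p = 0.0423), but not without the WT female (0.84, edgeR adjusted p = 0.59) or the NLGF female (1.03, edgeR adjusted p = 0.585).

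Slc7a1 (chromosome 5, 148327410 to 148399904), the cationic amino acid transporter CAT1, had 14, 22, 70 and 48 UMIs in Cldn5-bearing members, or 452, 410, 808 and 947 CPM. The NLGF libraries did not overlap with the WT libraries. The log2 fold change was 1.02 ± 0.28 (edgeR unadjusted p = 0.00486, adjusted p = 0.995) and 0.94 without the haemoglobin barcodes. Only 3.14% of the Slc7a1 UMIs lay in Müller-marker members. In the Müller glia outside the selection Slc7a1 stood at 3.53, 2.3, 26.1 and 24.7 CPM and rose by 3.11 ± 0.35 on the log2 scale (edgeR adjusted p = 0.000843).

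Endothelial identity genes that the selection did not use gave no call between genotypes. The list had 25 genes, and their summed level in Cldn5-bearing members was 19800, 22600, 20300 and 21000 CPM. Of 22 tested, 0 had an unadjusted p under 0.05, 9 had a positive log2 fold change, and the median was -0.06 (-0.01 over all 975 genes). Ptprb, the phosphatase VE-PTP, had 1910, 2850, 2860 and 2680 CPM, and its log2 fold change was 0.21 with an interval (± 1.96 SE) from -0.48 to 0.91. Tek had 775, 634, 750 and 572 CPM, with an interval from -0.60 to 0.50. The WT female was the lowest library for Ptprb and the highest for Tek.

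Junction and barrier genes likewise gave no call. Of 24 genes on the list 14 were tested in Cldn5-bearing members, 1 was higher and 0 lower at an unadjusted p under 0.05, and the median log2 fold change was -0.02. Tjp1, the scaffold ZO-1, had 614, 895, 1380 and 1010 CPM, higher in both NLGF libraries. Its log2 fold change was 0.64 ± 0.27 (edgeR unadjusted p = 0.0387, adjusted p = 0.995) and 0.21 without the 2 haemoglobin barcodes, and 34.9% of its UMIs lay in 1 barcode. Ocln, occludin, had 9, 16, 22 and 4 UMIs, and the NLGF male was the lowest. Marveld2, Marveld3 and Plvap had 0 UMIs, and Jam3 and Cgn had UMIs in Müller-marker members only.

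Nutrient transporters and efflux pumps were measured better than most groups. Of 24 genes 17 were tested, 2 were higher and 0 lower at an unadjusted p under 0.05 (Slc7a1 and Slc9a3r2, a scaffold protein of the membrane), and the median log2 fold change was 0.17. Slc2a1, the glucose transporter Glut1, had 1160, 1120, 1300 and 1400 CPM. Its log2 fold change was 0.24 with an interval from -0.15 to 0.64. Abcb1a had 1490, 1270, 1100 and 1200 CPM, and its log2 fold change was -0.25 with an interval from -0.66 to 0.16. Both NLGF libraries lay below both WT libraries for Abcb1a, and above them for Slc2a1. Mfsd2a had 646, 373, 462 and 947 CPM, the WT male being lowest and the NLGF male highest, with an interval from -0.35 to 1.30. Slc7a5, the large neutral amino acid transporter LAT1, had 743, 653, 739 and 1100 CPM and a log2 fold change of 0.38 ± 0.28. Slco1a4 had 2360, 3450, 2290 and 2230 CPM, the WT male being highest.

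**Figure D3:**
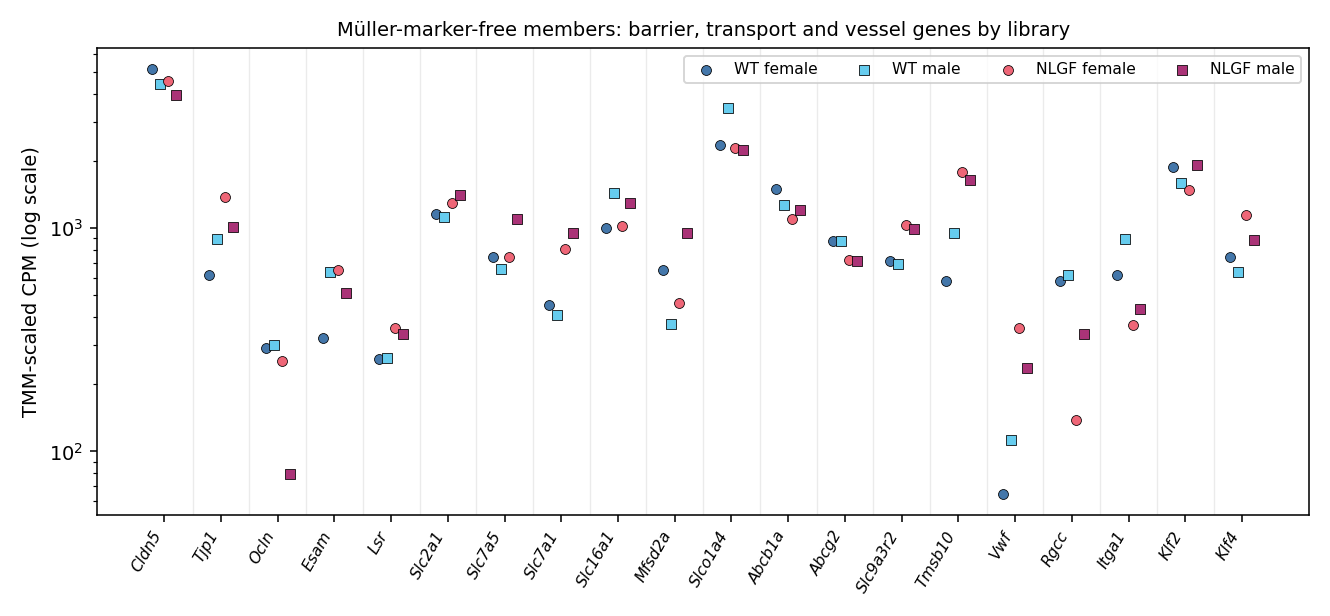
TMM-scaled CPM (y axis, log scale) of 20 barrier, transport and vessel genes in the 32 Cldn5-bearing members, 1 point per gene and library. Tmsb10 lies at 581 and 951 CPM in WT and at 1780 and 1640 CPM in NLGF, and Slc7a1 at 452 and 410 against 808 and 947, while Slc2a1 stays within 1120 to 1400 CPM.

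Genes of the norrin and Wnt pathway, which builds the retinal barrier, had few UMIs. The ligand gene Ndp had 0 UMIs in Cldn5-bearing members and 2, 1, 2 and 4 in Müller-marker members, and Wnt7b had 0 in all. The receptor gene Fzd4 had 8, 7, 12 and 10 UMIs and its co-receptor gene Tspan12 had 3, 1, 7 and 3. Ctnnb1, beta-catenin, had 969, 1010, 1000 and 1320 CPM with an interval of the log2 fold change from -0.24 to 0.67. Lef1, the transcription factor it acts through, had 452, 615, 369 and 533 CPM, with an interval from -0.99 to 0.39. Of 27 genes on the list 9 were tested, 0 had an unadjusted p under 0.05, and the median was 0.06.

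Growth factor and flow genes gave no call. Of 26 VEGF, angiopoietin and apelin genes 9 were tested with 0 at an unadjusted p under 0.05 and a median of -0.05. Vegfa, the ligand of Flt1 and Kdr, had 1 UMI in Cldn5-bearing members and 31, 14, 38 and 21 in Müller-marker members. Of 20 BMP and TGF-beta genes 8 were tested. Ltbp4, a latent TGF-beta binding protein, had 743, 578, 369 and 355 CPM, lower in both NLGF libraries, with a log2 fold change of -0.84 ± 0.33 (edgeR unadjusted p = 0.0292, adjusted p = 0.995). Id1, a BMP target, had 1260, 1060, 1380 and 1850 CPM. Of 19 shear stress genes 13 were tested, with 1 higher, 0 lower and a median of -0.03. Klf2, the main flow-induced factor, had 1870, 1590, 1480 and 1910 CPM with an interval from -0.56 to 0.50. Klf4, its relative, had 743, 634, 1150 and 888 CPM and a log2 fold change of 0.60 ± 0.25 (edgeR unadjusted p = 0.0401, adjusted p = 0.995).

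Genes of leukocyte adhesion were near the limit of detection. Of 25 leukocyte adhesion and NF-kB genes 11 had 0 UMIs in Cldn5-bearing members, Sele, Selp and Ccl2 among them, and 2 were tested. Icam1, an adhesion molecule for leukocytes, had 0, 1, 0 and 0 UMIs, and Vcam1, another, had 1, 3, 1 and 1. Of 33 interferon and antigen presentation genes 11 were tested, 0 had an unadjusted p under 0.05, and the median log2 fold change was -0.15. Ifitm3, an interferon-induced membrane protein, had 1360, 1040, 785 and 1030 CPM, with an interval from -0.89 to 0.08. Ly6e, another, had 1740, 1490, 1490 and 2090 CPM, and its genotypes overlapped.

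Vein, capillary and matrix genes gave no call. Vwf, which marks veins, had 2, 6, 31 and 12 UMIs and a log2 fold change of 1.68 ± 0.56 (edgeR unadjusted p = 0.0145, adjusted p = 0.995), with 51.0% of its UMIs in the deepest NLGF female barcode. Without that library the log2 fold change was 1.33. Of the 13 genes on the vein list, which includes Tmsb10, 3 were tested, with a median of 1.11. Vwf and Tmsb10, 2 of these 3, were higher at an unadjusted p under 0.05, against 1.74% of all 975 genes. Both had been named for their small p over all members, which include these barcodes, so their share describes that choice and is no test of the list. The vein list summed to 1290, 1470, 2770 and 2490 CPM, with 32.4% of its UMIs in 1 barcode. Tmsb10, whose levels are given above, made up much of that sum. Rgcc, a cell cycle regulator used as a capillary marker, had 18, 33, 12 and 17 UMIs, or 581, 615, 138 and 335 CPM. Both NLGF libraries were lower, with a log2 fold change of -1.42 ± 0.46 (edgeR unadjusted p = 0.0124, adjusted p = 0.995). The rest of the capillary list did not follow Rgcc. Of its 13 genes 9 were tested, with 0 higher and 1 lower (Rgcc) at an unadjusted p under 0.05. Of these 9, 5 had a positive log2 fold change, and the median was 0.21. The capillary list summed to 16700, 24000, 17800 and 21200 CPM, and the genotypes overlapped. Itga1, the collagen-binding integrin alpha 1, had 614, 895, 369 and 434 CPM and a log2 fold change of -0.96 ± 0.32 (edgeR unadjusted p = 0.0133, adjusted p = 0.995). Of 29 basement membrane and matrix genes 16 were tested, with 1 higher, 2 lower and a median of -0.21. Col4a1, a collagen IV chain of the basement membrane, had 1200, 1620, 1060 and 1160 CPM, with an interval from -0.81 to 0.07.

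App, the gene of the amyloid precursor protein that carries the knock-in, did not pass the test. It had 46, 86, 111 and 74 UMIs in Cldn5-bearing members, or 1490, 1600, 1280 and 1460 CPM. Its log2 fold change was -0.18 ± 0.21, with an interval from -0.60 to 0.23, although both NLGF values lay below both WT values. Over all 57 members it was 0.14 ± 0.27. Of 39 genes that cleave, carry or clear amyloid 13 were tested in Cldn5-bearing members, 0 had an unadjusted p under 0.05, and the median was -0.17. Lrp1, a clearance receptor, and Sorl1, a sorting receptor of App, had 0 UMIs in Cldn5-bearing members and 8, 13, 16 and 10 and 21, 12, 18 and 24 UMIs in Müller-marker members. Apoe had 10, 12, 15 and 14 UMIs in the former and 725, 685, 1098 and 804 in the latter.

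The study is concerned with stress of the endoplasmic reticulum (ER) in Müller glia. Under ER stress the kinase PERK slows translation and raises Atf4, which induces Ddit3, Atf5 and amino acid transporter genes. Of 36 genes of this branch 12 were tested over the 57 members, 7 were higher and 0 lower at an unadjusted p under 0.05 (2.13% and 1.63% of all genes), and the median log2 fold change was 0.88 (-0.02 over all genes). Nupr1, a stress-induced chromatin protein, led the list at 2.91 ± 0.63 (edgeR unadjusted p = 0.000233, adjusted p = 0.493) and Atf5 followed at 2.70 ± 0.66 (edgeR adjusted p = 0.493).

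Of these 7 genes, Slc7a1 and Slc7a5 had nearly all of their UMIs in Cldn5-bearing members (3.14% and 2.2% in Müller-marker members). The other 5 were counted mainly in Müller-marker members. Nupr1 had 1, 2, 29 and 15 UMIs there and 1, 0, 0 and 0 in the Cldn5-bearing members, so that 97.9% of its UMIs came from Müller-marker members. Atf5 had 1, 3, 19 and 18 UMIs there and 0 in every library of the Cldn5-bearing members. Atf4 had 3, 4, 14 and 26 UMIs in Müller-marker members against 2, 4, 2 and 6. Ddit3, the factor CHOP, had 5, 5, 27 and 15 against 0, 1, 2 and 0. Herpud1, an ER-associated degradation protein, had 6, 8, 22 and 17 against 0, 3, 9 and 2. In the 25 Müller-marker members alone, Nupr1 rose by 3.52 on the log2 scale (edgeR adjusted p = 0.00133), and 5 of 8 list genes tested were higher at an unadjusted p under 0.05, with a median of 1.51 (-0.03 over all 1041 genes). In the 32 Cldn5-bearing members 4 list genes were tested, 1 (Slc7a1) was higher, and the median was 0.33. The summed level of the list was 1660, 1430, 3390 and 3220 CPM in Müller-marker members and 2840, 2700, 3360 and 3750 CPM in Cldn5-bearing members, and the genotypes did not overlap in either set. In Cldn5-bearing members, 16.3% of all 975 genes tested were higher in NLGF with no overlap. Slc7a1 and Slc7a5 held a large part of the sum there, and Nupr1, Atf5 and Ddit3 almost none. The detection of Nupr1, in 14 of 25 and 1 of 32 barcodes, stood beside 39.8% of the 990 Müller glia barcodes.

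Several of these genes also rose in the Müller glia outside the selection, where 87 of 11434 genes (0.761%) passed. In their sums Nupr1 rose by 1.54, Atf4 by 1.37, Ddit3 by 1.74 and Atf5 by 2.06 on the log2 scale (edgeR adjusted p = 6.67e-05, 5.96e-05, 5.05e-05 and 1.38e-05). Slc7a5 rose by 1.39 there (edgeR adjusted p = 0.0111) and Cdkn1a, a cell cycle inhibitor, by 2.78 (edgeR adjusted p = 0.00168). In Cldn5-bearing members Cdkn1a had 10, 17, 36 and 18 UMIs and a log2 fold change of 0.28 ± 0.39. The interaction test below made no call on any of these genes. It took all 57 members, and most member UMIs of Nupr1, Atf4, Ddit3 and Atf5 lay in Müller-marker members. For these genes it therefore could not show whether endothelial barcodes responded differently from Müller glia. With Cldn5-bearing members alone 1 of 10040 genes passed the interaction, and that gene was Fn1. Nupr1, Atf4, Ddit3 and Atf5 had few or no UMIs in those members, so this fit could not decide it for them either. For Slc7a1, Slc7a5 and Cdkn1a a difference in response was not shown in either fit.

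**Figure D4:**
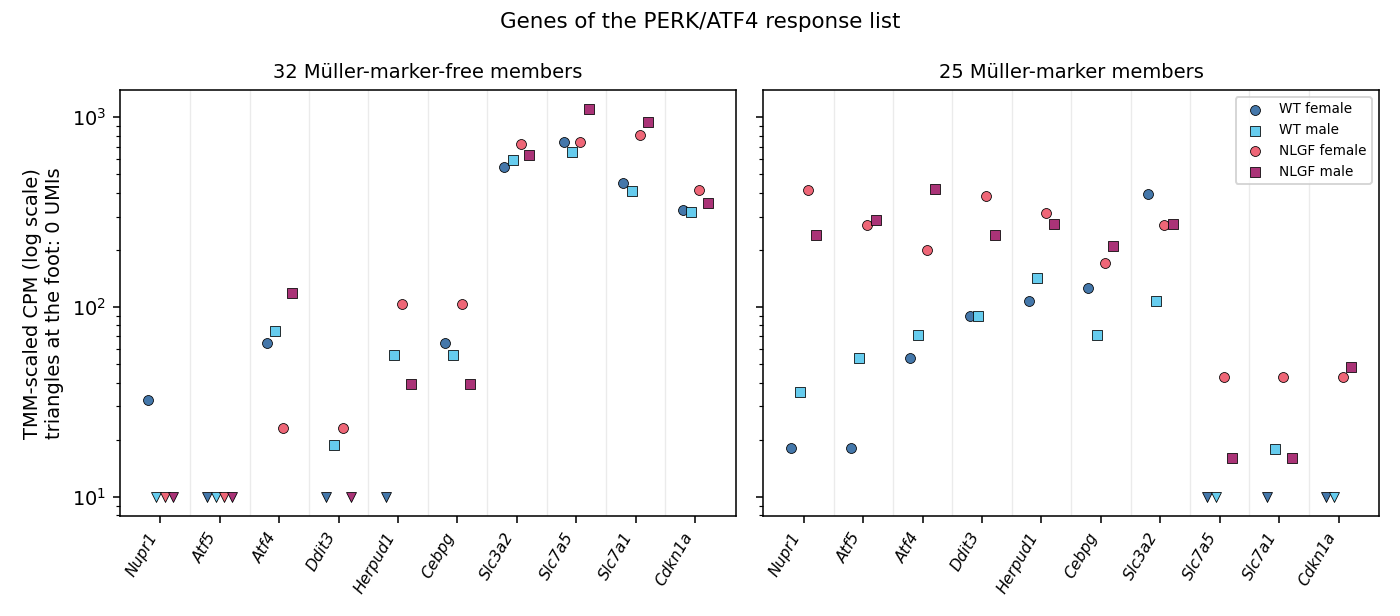
TMM-scaled CPM (y axis, log scale) of 10 genes of the PERK and ATF4 response list in the 32 Cldn5-bearing members (left) and the 25 Müller-marker members (right), 1 point per gene and library, with triangles at the foot for 0 UMIs. Nupr1 and Atf5 are at 0 UMIs in both NLGF libraries on the left and have 15 to 29 UMIs in each NLGF library on the right, while Slc7a1 has 14, 22, 70 and 48 UMIs on the left.

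The sequences before 3 of these genes are shown. Nupr1 passed in Müller-marker members, and Herpud1 was higher beside it. Slc7a1 was the 1 list gene, of 4 tested in Cldn5-bearing members, with an unadjusted p under 0.05 there. The 3 were chosen after their values were seen. Each stretch is the 250 bases before a RefSeq transcription start on GRCm38.p6, 5′ to 3′ on the strand of the gene. Slc7a1 has another RefSeq start, whose window (chr5:148392816-148393065) is not shown. Capitals mark matches to TGATGNAA on either strand, the core of the element that ATF4 binds together with C/EBP factors. This motif was found in 3.45% of 32851 such windows over all genes. The Nupr1 window is chr7:126625471-126625720 on the minus strand, that of Herpud1 chr8:94386179-94386428 on the plus strand and that of Slc7a1 chr5:148399905-148400154 on the minus strand.
Nupr1: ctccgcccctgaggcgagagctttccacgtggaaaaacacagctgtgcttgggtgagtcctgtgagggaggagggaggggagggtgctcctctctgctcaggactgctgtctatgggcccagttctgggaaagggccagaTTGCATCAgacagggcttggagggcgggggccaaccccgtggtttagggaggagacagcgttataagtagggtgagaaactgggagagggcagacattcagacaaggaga
Herpud1: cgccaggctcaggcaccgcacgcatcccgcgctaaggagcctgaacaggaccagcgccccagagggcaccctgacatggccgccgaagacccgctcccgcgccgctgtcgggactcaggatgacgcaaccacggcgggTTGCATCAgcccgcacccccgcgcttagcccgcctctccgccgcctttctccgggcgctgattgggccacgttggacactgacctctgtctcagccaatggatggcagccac
Slc7a1: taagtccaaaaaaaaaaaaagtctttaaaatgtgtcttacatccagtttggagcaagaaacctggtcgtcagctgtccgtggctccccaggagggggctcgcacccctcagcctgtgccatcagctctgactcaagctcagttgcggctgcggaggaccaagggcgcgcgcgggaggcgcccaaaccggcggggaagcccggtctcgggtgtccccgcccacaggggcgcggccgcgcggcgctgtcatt
The match begins 110 bases before the start of Nupr1 and 112 bases before that of Herpud1. The window of Slc7a1 has 0 matches, and so has the window of its other start. Chac1 and Asns, other targets of ATF4, also had 1 match, and Atf5, Atf4, Ddit3, Trib3, Slc3a2, Cebpg, Mthfd2 and Sesn2 had 0. Vldlr had 1 match before 1 start and 0 before another. A match describes these letters only.

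Other stress lists showed little in the Cldn5-bearing members. Of 30 genes of ER chaperones and other targets of ATF6 and XBP1 5 were tested, 0 had an unadjusted p under 0.05, and the median log2 fold change was 0.03. Hspa5, the chaperone BiP, had 10, 17, 23 and 14 UMIs and an interval from -1.05 to 0.57, and Xbp1 had 4, 1, 8 and 3 UMIs. Of 14 heat shock genes 6 were tested, with 0 at an unadjusted p under 0.05 and a median of 0.40. Mt1, a metallothionein gene, had 1, 1, 4 and 0 UMIs in Cldn5-bearing members and 42, 39, 99 and 100 in Müller-marker members, and its log2 fold change over all members was 0.83 ± 0.28 (edgeR unadjusted p = 0.00921, adjusted p = 0.999). Of 22 proliferation genes 10 had 0 UMIs in Cldn5-bearing members, Mki67 and Top2a among them. Of 29 hypoxia and glycolysis genes 8 were tested, with 0 at an unadjusted p under 0.05 and a median of 0.00. Of 13 mitochondrially encoded genes 12 were tested, with 0 at an unadjusted p under 0.05 and a median of -0.03. Genes of cholesterol synthesis and of the circadian clock had too few UMIs in Cldn5-bearing members for any to be tested.

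Among genes lower in NLGF over all members, the smallest p belonged to the unnamed gene model 4930578M01Rik, which the rule for names leaves out, and to Hbb-bt, a globin gene counted almost wholly in 1 WT male barcode. The next was Dapl1, a gene of the Müller-marker members. Dapl1, a gene whose product is linked to cell death pathways, had 83, 80, 74 and 37 UMIs there and 1 UMI in Cldn5-bearing members. Its log2 fold change over all members was -1.05 ± 0.28 (edgeR unadjusted p = 0.00179, adjusted p = 0.712). Camk2n1, an inhibitor of the kinase CaMKII, had 24, 27, 16 and 16 UMIs there and a log2 fold change of -0.91 in them (edgeR unadjusted p = 0.0267). Tbrg1 and Cnih4 had log2 fold changes of -1.52 ± 0.53 and -1.26 ± 0.48 over all members, with 40 and 50 UMIs in all. Ap2b1, a subunit of the clathrin adaptor AP-2, had 10, 15, 14 and 3 UMIs in Cldn5-bearing members and a log2 fold change of -1.30 ± 0.56 in them (edgeR unadjusted p = 0.0454, adjusted p = 0.995). It was -0.85 without the NLGF male and -2.30 without the NLGF female.

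The third comparison asks whether the difference between genotypes was itself different in the members and in Müller glia of the same libraries. Of 10057 genes tested for this interaction 2 (0.0199%) passed, both with a higher NLGF to WT ratio in the members, and DESeq2 called 1. Fn1, the matrix protein fibronectin, had 38, 70, 174 and 57 UMIs in Cldn5-bearing members and 0, 0, 1 and 2 in Müller-marker members. In the Müller glia sums it stood at 113, 45.6, 14 and 12.8 CPM, so both NLGF libraries were lower, and it fell by 2.53 on the log2 scale (edgeR adjusted p = 0.00679). In the members its log2 fold change was 0.61 ± 0.34, with 37.7% of its UMIs in 1 barcode. The interaction was 2.99 ± 0.40 (edgeR adjusted p = 3.82e-06) and 2.91 with Cldn5-bearing members alone. It was 1.76 with edgeR adjusted p = 0.439 without barcodes in the top 6% of Scrublet scores, and 2.48 with edgeR adjusted p = 0.467 without the NLGF female.

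Cst3, the protease inhibitor cystatin C, gave the other call. It had 35, 41, 79 and 72 UMIs in Cldn5-bearing members, or 1130, 765, 912 and 1420 CPM, and the genotypes overlapped. In the Müller glia sums it stood at 5000, 1740, 1360 and 843 CPM, the WT female being far above the others. The interaction was 1.75 ± 0.35 (edgeR adjusted p = 0.0241). With Cldn5-bearing members alone it was 1.98 (edgeR adjusted p = 0.0822). It was also not called by DESeq2 (adjusted p = 0.999), with 0 mural UMIs (edgeR adjusted p = 0.0507) or without shared barcodes (edgeR adjusted p = 0.0767). It was 1.05 without the WT female (edgeR adjusted p = 1). Without the NLGF male it was 1.31 (edgeR adjusted p = 1), and without the NLGF female 2.33 (edgeR adjusted p = 0.391). The number of calls was 16 without the WT male, 6 without the NLGF male, 2 without the WT female and 1 without the NLGF female.

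The fourth comparison set the members against the sum of all other kept barcodes. Of 15032 genes 21 (0.14%) passed, 20 with a higher NLGF to WT ratio in the members and 1 with a lower one, and DESeq2 called 0. Genes of endothelial cells made up 11 of the 20, with Ptprb, Abcb1a, Slco1a4, Klf2 and Mfsd2a among them. Cldn5 and Ly6c1 were also among the 11, but they chose the members, so their values are a description. In the other barcodes Cldn5 had 799, 906, 55 and 831 UMIs, and 97.5% of these lay in the 35 barcodes past the mural limit, of which the NLGF female had 4. Their highest mural count was 18 UMIs in the NLGF female, against 577, 341 and 409 in the other libraries. Abcb1a had 266, 232, 5 and 222 UMIs there, 96.3% of them past the mural limit. Without the 35 barcodes 11 of 14955 genes (0.0736%) passed, 10 of them shared with the first fit, and 0 of these 11 endothelial genes did (Klf2 edgeR adjusted p = 0.0596, Ptprb and Abcb1a adjusted p = 1).

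Of the other calls, Pcp2, Gng13, Chgb and Trpm1, genes of bipolar and other neurons, had 81.2% to 91.8% of their member UMIs in 1 barcode, and Lrtm1 had 100%. Hbb-bt, a beta-globin gene, had 98.4% of its UMIs in 1 WT male barcode. Fn1 passed here as well, at 1.64 (edgeR adjusted p = 0.00858), and at 1.42 without the 35 barcodes (edgeR adjusted p = 0.0336). The number of calls was 8 with the WT female left out, 16 with the WT male, 4 with the NLGF female and 61 with the NLGF male left out.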

How the data were processed

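Single-cell RNA sequencing libraries of 4 mouse retinas were read as UMI counts per gene and barcode. The authors deposited these counts unnormalized, as filtered matrices whose headers name Cell Ranger 6.1.1. Per the submitters' processing notes, the tools were STAR and Cell Ranger 3.1.0 with the mm10 genome, and which version made the counts was not settled. Counts outside called barcodes were not used here. The lowest barcode had 500 UMIs. How free RNA and doublets were treated before deposit was not given in the sources consulted, and Scrublet (scanpy 1.11.5) was run on each library.

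Members were chosen by their detected genes, and their UMIs were summed per library. The members, the gene lists and the named genes were chosen with earlier results of these data known. The sums were tested with edgeR 4.0.16 (R 4.3.3; TMM, filterByExpr, quasi-likelihood test, genotype as the only term), with Benjamini-Hochberg adjustment over all genes tested and a threshold of 0.05. Intervals of a log2 fold change are its value ± 1.96 SE. They are narrower than 95% intervals from edgeR's F test would be, so they bound single genes less firmly. Differences between cell populations were tested as an interaction with library as a block. Shares of barcodes were compared with an exact permutation test. The code was tested on simulated data.

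Named genes were up to 12 per direction past the threshold, filled to 5 per direction with the smallest p among genes changed the same way in both sexes (leaving out unnamed models, sex-linked and mitochondrial genes and those lower in members than 0.5 times their level over kept barcodes), up to 4 genes per list, a fixed set of stress, transport and vessel genes, and up to 5 per direction in each interaction. Genes named for other reasons, such as those at 0 UMIs, were chosen after their values were seen. Alternatives were DESeq2 1.42.0, other size factors, no filter, other limits on barcodes, thinning, a replicate block and leaving out each library. The splits by Müller markers, haemoglobin, bipolar genes (at least 10 UMIs of Trpm1 and Prkca), the deepest barcode and the barcodes past the mural limit were added after the data were seen. Promoter sequences came from RefSeq on GRCm38.p6, and positions from GENCODE M21, which matched 32235 of 32285 gene IDs.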

Additional observations from a re-analysis of the deposited data

Results flagged for a closer look

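The difference between NLGF and WT was itself different in the members and in Müller glia for Fn1 (log2 interaction 2.99) and Cst3 (1.75), by edgeR's interaction test. Fn1 had 37.7% of its member UMIs in 1 barcode. It lost the call without the top 6% of Scrublet scores (log2 interaction 1.76) and on leaving out the NLGF female (2.48). Cst3 lost the call on leaving out the WT female, the NLGF female or the NLGF male. It was also lost with Cldn5-bearing members alone, with DESeq2, with 0 mural UMIs and without shared barcodes.

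Against all other kept barcodes, the same test picked out endothelial genes, with log2 interactions of 2.22 for Ctla2a, 1.96 for Adgrl4, 1.90 for Ptprb, 1.96 for Abcb1a, 1.74 for Klf2, 1.81 for Slco1a4, 1.60 for Itm2a, 1.58 for Ly6a and 2.15 for Mfsd2a, and 1.64 for Fn1. Without the 35 barcodes past the mural limit, Ctla2a was at 0.93, Adgrl4 at 0.46 and Itm2a at 0.64, and Fn1 alone of these 10 genes still passed.

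It also picked out Pcp2 (3.70), Pcp4 (3.59), Gng13 (3.88), Chgb (4.50), Lrtm1 (12.62), Trpm1 (3.51), Trnp1 (4.05) and C130073E24Rik (12.25), and Hbb-bt in the other direction (-3.40). Of the member UMIs of these 9 genes, 81.2% to 100% lay in 1 barcode for each gene.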

How the results depend on the processing

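Over the 57 members, the 0 calls between NLGF and WT became 15 with no filter on low counts, 5 to 14 on leaving out 1 library, and 1 with Müller-marker members only, without the deepest NLGF female barcode or without the haemoglobin barcodes (Nupr1 each time). The lone library of a genotype is then assumed to vary like the others. Without Müller-marker members, leaving out 1 library gave 5 to 12 calls. Sex as a replicate block gave 0 calls and 69 genes at an unadjusted p under 0.05. Same-sex libraries are different mice, and their deviations correlated at -0.315 over 2392 genes, so the numbers do not pair them. The interaction with Müller glia went from 2 calls to 9 with no filter, 7 with at least 10 endothelial UMIs and 1 to 16 on leaving out 1 library. It gave 1 call with DESeq2, without the top Scrublet scores, with 0 mural UMIs, without shared barcodes and without Müller-marker members. The interaction with all other barcodes gave 0 calls with DESeq2, 4 to 61 on leaving out 1 library, 6 without Müller-marker members and 11 without the barcodes past the mural limit. The difference in share reversed to -0.0054 with no mural limit and -0.00994 with 0 mural UMIs.

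Among single genes, App was 0.42 without the WT male but turned to -0.06 without the WT female, -0.01 without the deepest barcode, -0.18 without Müller-marker members (-0.20 with DESeq2, -0.29 also without haemoglobin barcodes, -0.15 also without the bipolar-gene barcode, -0.25 to -0.10 on leaving out 1 library, -0.13 without the WT male). Slc2a1 was -0.04 in Müller-marker members, Mfsd2a -0.07 in Cldn5-bearing members without the NLGF male, and Cdkn1a -0.03 with 0 mural UMIs. On leaving out 1 library, Gng13 ranged from -9.38 (NLGF female out) to 13.08 and Hbb-bt from -14.93 to 13.87 (WT male out), and both fitted values rest on libraries with 0 UMIs and are no bound. Except where a value or the setting itself (fewer barcodes or libraries) shows it, the cause was not tested. At 29812 to 84020 UMIs per library in Cldn5-bearing members, 975 genes could be tested.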
